A study of Mus musculus with 48 samples.

Results

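Genes of 2 classes of multi-subunit ubiquitin ligase, the cullin scaffolds and the anaphase-promoting complex (APC/C), were followed in hippocampal microglia of mouse pups reared under UPS, LB or CTL conditions. Members were all genes of the deposited tables whose symbol is Cul with a digit, starts with Anapc, or is Cdc16, Cdc23, Cdc26 or Cdc27. This gave 6 of the 478 genes in each table: the APC/C subunits Anapc1, Cdc23, Cdc27 and Anapc7, and the cullins Cul1 and Cul2. The rule is by name and uses no measured value, but it was set with earlier results of these data known.

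The pups were Balbc/Byj mice of both sexes at P17, an age of 17 days, and no transgene or drug was named for any group. Each of the UPS, LB and CTL groups held 16 animals, 8 per sex, and came from several litters, so some animals were littermates. CTL is the control rearing, and as background LB limits the bedding and nesting material while UPS adds unpredictable stress. From each animal 60000 microglia, isolated on a Percoll gradient and sorted, were lysed and counted on the nCounter mouse glial panel, which reads RNA molecules with fluorescent barcoded probes and without amplification. Because cells were pooled within an animal, fewer cells with a transcript and less transcript per cell cannot be told apart.

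Ubiquitin ligases attach ubiquitin to chosen proteins and so mark many of them for the proteasome. Cullin ligases use a cullin as a rigid scaffold, with the RING protein Rbx1 at one end to recruit the ubiquitin-conjugating enzyme and an exchangeable adaptor and substrate receptor at the other. The APC/C is a larger relative of this design that drives exit from mitosis by destroying cyclin B and securin, and it is also active in cells that do not divide, including neurons. Microglia still multiply in the first postnatal weeks, and cullin ligases also turn over regulators of NF-kB, beta-catenin and hypoxia signalling.

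The values are ratios between groups from the authors' deposited tables, 1 table per pair of groups, with the sexes pooled. The headers do not name the numerator, so each sign is given as deposited: if the ratio is the stressed group over CTL (and UPS over LB), a negative sign means less transcript in the stressed group (in UPS), and under the other reading every sign in the 3 tables is turned. No value of a single library was used here, so levels, the depth of each library and the animals that share a direction are not given. For each gene 1 standard error was recovered, from its deposited ratio of largest size and the p of that ratio. It was used for the 95% intervals in all 3 tables, and these intervals take littermates as independent animals. A gene passed at a Benjamini-Hochberg adjusted p below 0.05 over the 478 genes of its table.

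Of the 6 members 1 passed, once: Cdc23 in the UPS and CTL table. Among all genes of that table, 4.81% passed and 1.26% passed with a negative ratio. All 6 members had a negative ratio between UPS and CTL and all 6 between LB and CTL in the authors' deposited tables, where 51.3% and 47.3% of all genes did, and the 2 comparisons share the CTL animals. Between UPS and LB, 4 of 6 were negative, against 56.1% of all genes, and none passed (6.28% of all genes passed, and 1.67% with a negative ratio). The median log2 ratio of the members was -0.091 between UPS and CTL, -0.047 between LB and CTL and -0.043 between UPS and LB. Over all genes the median was -0.0025, 0.0035 and -0.010 in the same order. Since these 6 genes can vary together in an animal, the counts of signs are a description and were not tested.

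**Figure D1:**
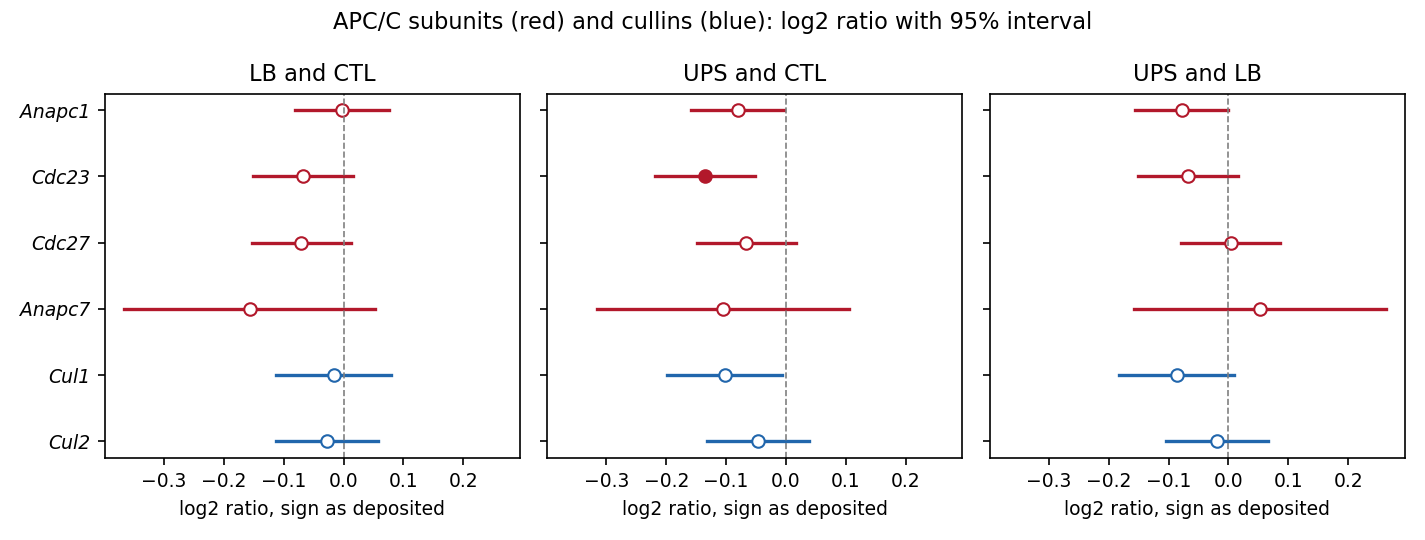
Log2 ratio of each member (points) with its recovered 95% interval (bars) in each pair of groups, on the x axis with signs as deposited. Cdc23 between UPS and CTL, at -0.135, is the single filled point, which marks an adjusted p below 0.05, and the bars of Anapc7 are the widest.

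Cdc23 encodes a subunit of the arm of tetratricopeptide repeat proteins on which the APC/C binds its coactivators. Between UPS and CTL the authors' deposited table gave it a log2 ratio of -0.135, a linear ratio of 0.911, with a p of 0.00222. The adjusted p was 0.0461 by the Benjamini-Hochberg method over all genes, and the recovered interval ran from -0.22 to -0.051, or 0.859-fold to 0.965-fold. It ranked 23 of the 23 genes that passed, and the next gene in the table had an adjusted p of 0.0512. The call did not hold under 3 of the alternatives. With the log2 ratios centred on the median of all genes the Benjamini-Hochberg adjusted p was 0.0527. Adjusted over all tables together it was 0.0559, and by the Benjamini-Yekutieli method it was 0.311. The size of the ratio exceeded that of 86.1% of the genes in the table, counting Cdc23 itself.

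By its ratios LB lay midway between UPS and CTL for Cdc23. In the authors' deposited tables the log2 ratio was -0.0677 between LB and CTL (p = 0.11, Benjamini-Hochberg adjusted p = 0.491) and -0.0676 between UPS and LB (p = 0.111, adjusted p = 0.382). Both recovered intervals reached past 0, to 0.016 on the log2 scale in each case. The order of the groups, UPS, LB, CTL from the lowest as signed, therefore rests on the outer pair, and neither neighbouring pair differed beyond its error.

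Cdc27, another tetratricopeptide repeat subunit and a main docking site of the coactivators, had similar ratios to CTL in both stressed groups. The authors' deposited tables gave it a log2 ratio of -0.0664 between UPS and CTL (p = 0.112), -0.0705 between LB and CTL (p = 0.0925) and 0.00408 between UPS and LB (p = 0.921). The recovered interval between UPS and LB ran from 0.947-fold to 1.06-fold, and the other intervals included 0 as well. None of the 3 passed, the lowest of their adjusted p-values being 0.409.

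Anapc7, an APC/C subunit of the same repeat family that vertebrates carry, had the largest ratio of the 6 between LB and CTL and the least certain one. The authors' deposited tables gave log2 ratios of -0.105 between UPS and CTL (p = 0.32), -0.157 between LB and CTL (p = 0.139) and 0.0529 between UPS and LB (p = 0.619). Its recovered standard error was 0.104 on the log2 scale, 2.07 times the median of all genes and above 86.6% of them, counting Anapc7 itself. The interval between LB and CTL ran from 0.775-fold to 1.04-fold.

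Anapc1 encodes the large scaffold that joins the repeat arm to the catalytic module. Its ratio to CTL was near 0 for LB and larger for UPS. The authors' deposited tables gave it a log2 ratio of -0.0809 between UPS and CTL (p = 0.0423), -0.00284 between LB and CTL (p = 0.942) and -0.078 between UPS and LB (p = 0.0497). The Benjamini-Hochberg adjusted p was 0.297, 0.980 and 0.264 in that order, so no pair passed. Anapc1 had the smallest standard error of the members, 0.039, and its interval between LB and CTL ran from 0.946-fold to 1.05-fold.

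Cul1 is the scaffold of the SCF ligases, in which the adaptor Skp1 holds an F-box protein that picks the substrate. Like Anapc1 it had a small ratio between LB and CTL and larger ones in both UPS comparisons. In the authors' deposited tables the log2 ratio of Cul1 was -0.102 between UPS and CTL (p = 0.0379), -0.0161 between LB and CTL (p = 0.738) and -0.0862 between UPS and LB (p = 0.078). None passed, with Benjamini-Hochberg adjusted p-values of 0.294, 0.921 and 0.327.

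Cul2 is the scaffold of ligases whose adaptor is elongin B and C and whose best known receptor is the von Hippel-Lindau protein, which binds hypoxia-inducible factors. It had the smallest ratio of the 6 between UPS and CTL. The authors' deposited tables gave log2 ratios of -0.0464 between UPS and CTL (p = 0.278), -0.0271 between LB and CTL (p = 0.524) and -0.0193 between UPS and LB (p = 0.65). The recovered interval between UPS and CTL ran from 0.913-fold to 1.03-fold.

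**Figure D2:**
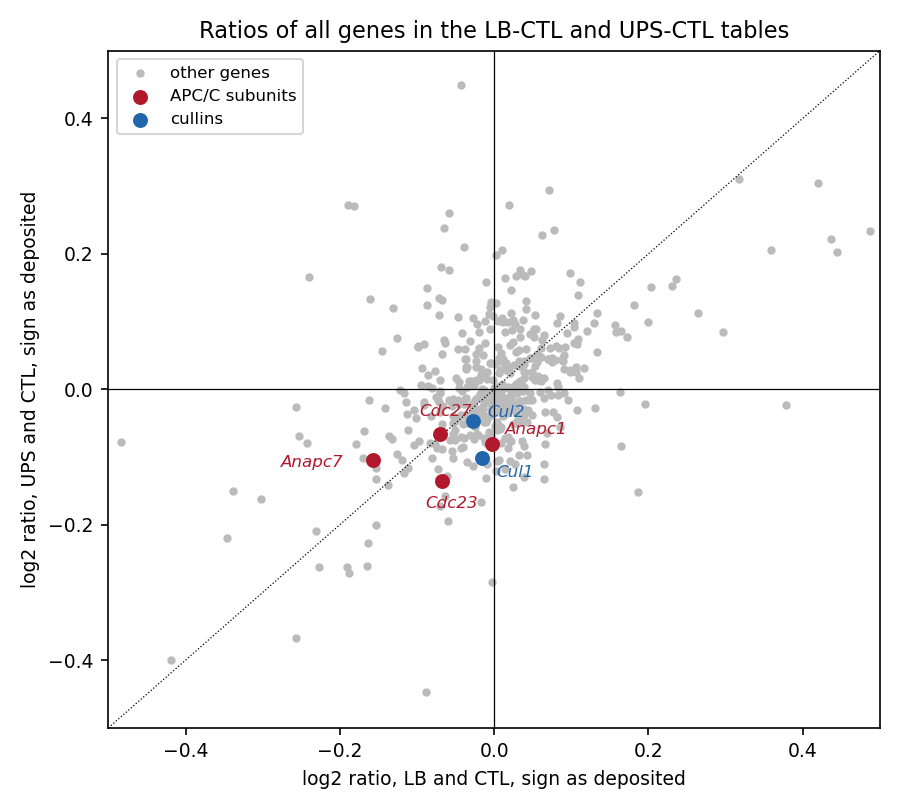
Log2 ratio between LB and CTL (x axis) and between UPS and CTL (y axis) for all genes, signs as deposited, with APC/C subunits in red and cullins in blue. The dotted line marks equal ratios, the CTL animals are in both axes, and 10 genes lie outside the drawn range of 0.5 to either side. All 6 members are below 0 on both axes, with Anapc1 at -0.00284 next to the vertical line and Anapc7 furthest left at -0.157.

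Of the 6 members 3 (Cdc23, Cul1 and Anapc1) had an unadjusted p below 0.05 between UPS and CTL, where 16.3% of all genes did and 7.11% did with a negative ratio. Between UPS and LB 1 of 6 did (Anapc1), against 18.8% of all genes and 9% with a negative ratio. Between LB and CTL none did, against 11.7% of all genes, or 56 genes, and 5.02% with a negative ratio. No gene of the LB and CTL table passed after Benjamini-Hochberg adjustment, while 3 did with the 3 tables adjusted together, none of them a member. The log2 ratios of the 6 ranged from -0.135 to -0.0464 between UPS and CTL, from -0.157 to -0.00284 between LB and CTL and from -0.0862 to 0.0529 between UPS and LB. Differences between members were not tested, since that needs values per library.

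**Figure D3:**
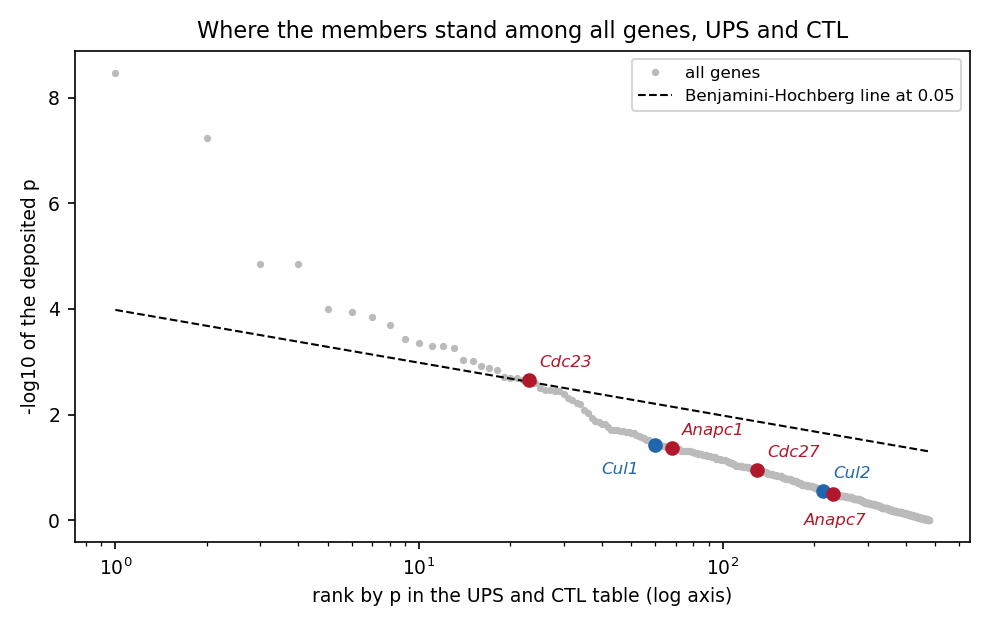
Genes of the UPS and CTL table by the rank of their p (x axis, log scale) against -log10 of the deposited p (y axis), with the members in colour. The dashed line is the Benjamini-Hochberg line at 0.05, and Cdc23, at rank 23, is the last gene to reach it, followed by Cul1 at rank 60 and Anapc1 at rank 68.

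Precision was similar for 5 of the members. Their standard errors lay between 0.039 and 0.048 on the log2 scale, below the median of 0.050 over all genes, and Anapc7 alone was above it. The largest p that passed between UPS and CTL was that of Cdc23, 0.00222 in the authors' test. A log2 ratio of 0.155 for Cul1, 0.138 for Cul2, 0.133 for Cdc27 or 0.126 for Anapc1 would have reached that p. For Anapc7 the size was 0.339, or 1.27-fold. Slightly smaller ratios could also have passed, since a further gene that passes moves the Benjamini-Hochberg line. For the 5 genes other than Anapc7, measured ratios beyond about 1.11-fold in either direction would therefore have passed in that table.

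The promoters of the 3 APC/C subunits shown here are given because subunits of 1 complex had the same sign against CTL, although none of these 3 passed. Both cullins had that sign too, as did 51.3% (UPS and CTL) and 47.3% (LB and CTL) of all genes. The promoter of Cdc23, the subunit that passed, was not used here, and windows of Cul1 were searched but are not shown. The windows shown are the 250 bases before the start in RefSeq's GRCm38.p6 build, 5′ to 3′, each gene shown having a single listed start. Capitals mark matches on either strand to the cell cycle homology region TTTGAA, the CCAAT box, the ETS core CCGGAA, the GC box GGGCGG or the NRF1 motif GCATGCGC.
Anapc1 (chr2:128687396-128687645, minus strand): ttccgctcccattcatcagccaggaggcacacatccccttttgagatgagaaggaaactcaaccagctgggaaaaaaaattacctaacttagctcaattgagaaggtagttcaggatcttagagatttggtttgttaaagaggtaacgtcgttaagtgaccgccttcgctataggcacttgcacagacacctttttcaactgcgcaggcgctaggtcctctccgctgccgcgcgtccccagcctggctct
Anapc7 (chr5:122422194-122422443, plus strand): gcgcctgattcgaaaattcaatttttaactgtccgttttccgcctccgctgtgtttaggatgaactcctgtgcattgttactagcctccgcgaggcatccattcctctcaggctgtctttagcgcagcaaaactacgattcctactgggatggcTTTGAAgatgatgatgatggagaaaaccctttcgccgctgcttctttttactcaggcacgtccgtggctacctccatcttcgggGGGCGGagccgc
Cdc27 (chr11:104550621-104550870, minus strand): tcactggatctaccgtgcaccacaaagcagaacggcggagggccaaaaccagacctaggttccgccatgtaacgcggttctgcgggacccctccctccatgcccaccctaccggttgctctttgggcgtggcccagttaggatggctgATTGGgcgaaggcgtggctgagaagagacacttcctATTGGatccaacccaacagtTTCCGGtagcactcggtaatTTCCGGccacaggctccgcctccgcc
No motif of the 5 was present in all 3 windows. Anapc1 held none. Anapc7 held 1 TTTGAA and 1 GGGCGG, found in 16.0% and 32.7% of the 32851 windows of that length. Cdc27 held 2 CCAAT boxes and 2 ETS cores, found in 33.8% and 12.0% of all windows, and NRF1 letters occurred in 2.26%. The matches are letters in a window and describe no binding, those of Cdc27 read as the reverse complement, and no match overlapped another.

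Partners of the cullins showed no gene past the threshold in any pair. The shares of all genes that passed were 4.81% (UPS and CTL), 0% (LB and CTL) and 6.28% (UPS and LB). The list of adaptors and partners held 35 symbols, some of them older and newer names of the same gene. Of these 6 were measured, among them Rbx1, Skp1a, Fbxw11 and Eloc. Rbx1, the RING subunit that both Cul1 and Cul2 carry, had log2 ratios in the authors' deposited tables of -0.0587 between UPS and CTL (p = 0.131), 0.00744 between LB and CTL (p = 0.846) and -0.0662 between UPS and LB (p = 0.0899). Skp1a, the adaptor of Cul1, had the opposite sign to its scaffold against CTL, with 0.0417 between UPS and CTL (p = 0.309) and 0.0896 between LB and CTL (p = 0.0325, Benjamini-Hochberg adjusted p = 0.406) in the authors' deposited tables. Between UPS and LB Skp1a was at -0.0479 (p = 0.244) in the authors' deposited table, the same sign as Cul1. Eloc, the elongin C adaptor of Cul2, was at -0.0159 between UPS and CTL, 0.0458 between LB and CTL and -0.0617 between UPS and LB (p = 0.0896) in the authors' deposited tables.

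The F-box receptor Fbxw11, a close relative of Btrc that likewise targets inhibitors of NF-kB and beta-catenin, had log2 ratios of -0.0132 between UPS and CTL, 0.021 between LB and CTL and -0.0342 between UPS and LB (p = 0.189) in the authors' deposited tables. The list of 6 had a median log2 ratio of -0.029 between UPS and CTL, with 5 of 6 negative, and of 0.014 between LB and CTL, with 2 of 6 negative. Between UPS and LB the median was -0.041, with 5 of 6 negative. Over all genes the medians were -0.0025, 0.0035 and -0.010 in the same order, with 51.3%, 47.3% and 56.1% negative. Ctnnb1, beta-catenin, was the single gene measured of 15 listed substrates of cullin ligases, and its ratio was -0.0352 between UPS and CTL and 0.017 between LB and CTL in the authors' deposited tables. None of 18 listed genes of neddylation, the modification that activates cullins, or of cullin exchange was in the tables.

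**Figure D4:**
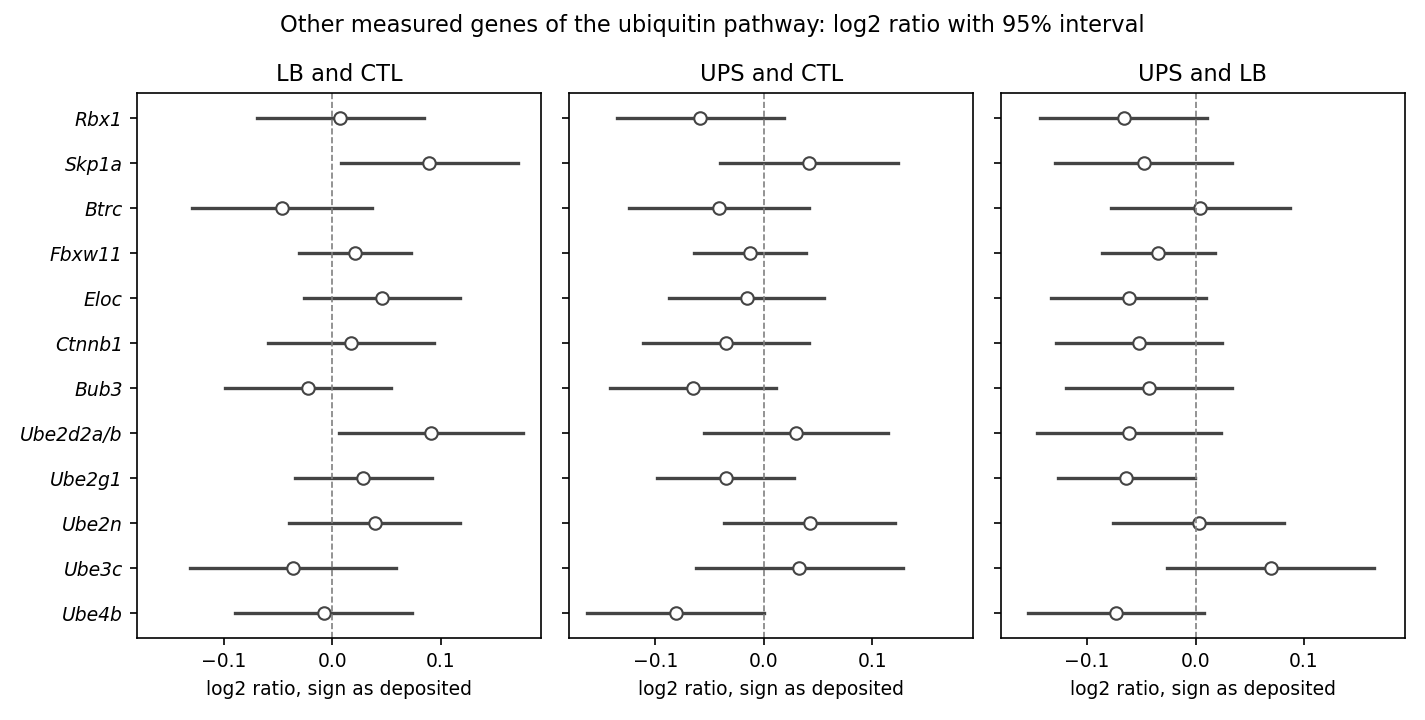
Log2 ratio (points) with recovered 95% interval (bars) of 12 other measured genes of the ubiquitin pathway in each pair of groups, signs as deposited on the x axis. All points are open because none passed; Rbx1, for instance, is at -0.0587 between UPS and CTL and Skp1a at 0.0417.

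Regulators and targets of the APC/C were sparse among the 478 genes analysed. Whether the others were missing from the panel or fell below the authors' limit of 20 counts was not checked. Of 13 listed coactivators, conjugating enzymes and inhibitors, 2 were measured. Bub3, a mitotic checkpoint protein that helps to restrain the APC/C, had log2 ratios of -0.0653 between UPS and CTL (p = 0.093), -0.0226 between LB and CTL and -0.0427 between UPS and LB in the authors' deposited tables. Ube2d2a/b, a joint label for a pair of conjugating enzymes that serve many ligases, was at 0.0293 between UPS and CTL and 0.0911 between LB and CTL (p = 0.0359, Benjamini-Hochberg adjusted p = 0.413) in the authors' deposited tables. Neither passed.

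The 2 measured genes of 16 listed APC/C substrates had positive ratios against CTL, opposite in sign to all 4 subunits. Of all genes, 51.3% (UPS and CTL) and 47.3% (LB and CTL) had negative ratios. Between UPS and LB both substrates were negative, as were 56.1% of all genes. Cdc23 and Anapc1 shared that sign, while Cdc27 (0.00408) and Anapc7 (0.0529) did not. Both substrates also serve as markers of cycling cells below. Ccnb1, the cyclin B whose destruction ends mitosis, was at 0.205 between UPS and CTL (p = 0.373), 0.359 between LB and CTL (p = 0.12) and -0.155 between UPS and LB (p = 0.494) in the authors' deposited tables. Mki67, the proliferation marker, was at 0.52 between UPS and CTL (p = 0.145), 1.00 between LB and CTL (p = 0.00621, Benjamini-Hochberg adjusted p = 0.198) and -0.481 between UPS and LB (p = 0.168) in the authors' deposited tables. Neither passed, and their standard errors, 0.226 and 0.347 on the log2 scale, were several times those of the subunits. Protein levels were not measured here.

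Ubiquitin-conjugating enzymes and ligases outside these families gave no call either. Ube4b, a U-box ligase that extends ubiquitin chains, had a log2 ratio of -0.0814 between UPS and CTL (p = 0.0499, Benjamini-Hochberg adjusted p = 0.304) in the authors' deposited table, close to that of Anapc1. The HECT ligase Ube3c was at 0.0327 between UPS and CTL in the authors' deposited table. Among the conjugating enzymes, Ube2g1 was at -0.0638 between UPS and LB (p = 0.0476, adjusted p = 0.256) and Ube2n at 0.0421 between UPS and CTL in the authors' deposited tables. In all, 16 genes of these lists other than the members were measured and 0 passed in any pair by the authors' test with Benjamini-Hochberg adjustment, where 4.81% (UPS and CTL), 0% (LB and CTL) and 6.28% (UPS and LB) of all genes passed. At an unadjusted p below 0.05 there were 1 of 16 between UPS and CTL, against 16.3% of all genes, 3 of 16 between LB and CTL, against 11.7%, and 1 of 16 between UPS and LB, against 18.8%. Their median log2 ratio was -0.015 between UPS and CTL, 0.019 between LB and CTL and -0.050 between UPS and LB. Over all genes it was -0.0025, 0.0035 and -0.010 in the same order.

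The genes most like Cdc23 were found by the distance between their ratios to CTL, each divided by its standard error, over the 2 comparisons with CTL, which share the CTL animals. The nearest were Acat1, a mitochondrial thiolase (distance 0.38), Cacnb2, a calcium channel subunit (0.41), Epb41l3, a membrane skeleton protein (0.51), Serpini1, a serine protease inhibitor (0.54), and Tlr2, the receptor of bacterial lipoproteins (0.70). No other member was among these 5 of the 478 genes, which says little about the other members. Acat1 had log2 ratios of -0.172 between UPS and CTL (Benjamini-Hochberg adjusted p = 0.0597) and -0.0702 between LB and CTL in the authors' deposited tables. Tlr2, at -0.194 and -0.0598, passed between UPS and CTL (adjusted p = 0.0199 in the authors' deposited table), and the other 4 did not.

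All 10 microglial markers listed were among the measured genes, including Cx3cr1, P2ry12 and Tmem119, but levels were not available to set them against other cell types. The tables also held 2 of 6 astrocyte, 3 of 7 oligodendrocyte lineage, 1 of 6 neuronal, 1 of 4 vascular, 1 of 4 border macrophage and 2 of 5 neutrophil, T or NK cell markers. Between UPS and CTL, where Cdc23 passed, the astrocyte marker Slc1a3 (0.21) and the border macrophage marker Stab1 (0.205) also passed in the authors' deposited table, with the opposite sign. The Benjamini-Hochberg adjusted p was 0.0461 for Slc1a3 and 0.0197 for Stab1. By the Benjamini-Yekutieli method it was 0.311 for Slc1a3 and 0.133 for Stab1, so neither passed. Adjusted over all tables together it was 0.0559 for Slc1a3, which did not pass, and 0.0192 for Stab1. With the log2 ratios centred on the median of all genes the Benjamini-Hochberg adjusted p was 0.0490 for Slc1a3 and 0.0171 for Stab1. Other markers had the sign of Cdc23 between UPS and CTL, among them Klrd1 (NK cells, -0.77), Mag (oligodendrocytes, -0.132) and Aif1 (microglia, -0.0632). Their lists did not share 1 sign. The 3 oligodendrocyte lineage markers ranged from -0.132 to 0.27 (Cspg4). The 10 microglial markers ranged from -0.0632 to 0.272 (Tmem119), with Itgam at 0.0885. None of the markers in these 2 lists passed between UPS and CTL, nor did Klrd1. Between UPS and LB, where no member passed, Tmem119 (0.462), Slc1a3 (0.25) and Stab1 (0.195) passed by Benjamini-Hochberg adjustment. By the Benjamini-Yekutieli method none of these 3 did, while all 3 passed with the tables adjusted together and with centring. The 3 measured markers of cycling cells had positive ratios between UPS and CTL, from 0.205 to 0.52, and none passed. Their part in the ratios of the members was not tested.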

How the data were processed

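Hippocampal microglia of 48 pups were counted on the nCounter glial panel in 4 batches, each with 2 libraries of every rearing group and sex. Per the series text, the authors analysed genes above 20 counts and compared pairs of groups in nSolver with batch as a covariate; its normalization and version: not given in the sources used here. Per the file headers, the deposited tables list for each gene a log2 ratio, its linear fold and p-values before and after adjustment. The linear fold matched the log2 column to within 0.494%. Depth per library is unknown.

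Nothing was refitted. The p-values were adjusted within each table of 478 genes (Benjamini-Hochberg), with the same calls as the deposited adjusted p-values. Standard errors were taken from the table where a gene's ratio was largest, by a t distribution with 42 residual degrees of freedom (48 libraries, rearing and batch). These gave the smallest mismatch between tables of the values tried (median 0.223%, against 1.67% for 27). The plan had assumed fits of 2 groups. Ratios of the members closed over the 3 tables to within 0.0009. The code was tested on simulated data.

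Named were all members, genes of each list that passed or up to 4 with the smallest p, and the 5 genes nearest to a member that passed. The members and lists were chosen with earlier results of these data known, and the motifs after the values had been seen. Some list genes are not reported here. All 6 member symbols matched RefSeq. Alternatives were other adjustments, centring, a looser threshold and other degrees of freedom. Python 3.11.15, scipy 1.17.1 and pandas 2.3.3 were used.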

Additional observations from a re-analysis of the deposited data

How the results depend on the processing

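The log2 ratios of the 6 members kept their sign in all 3 tables after centring on the median of all genes, which moved the ratios by 0.010 at most. Of the 72 member values compared under the alternatives, 69 kept their side of the threshold, and the 3 that did not were all Cdc23 between UPS and CTL. Much of this was fixed beforehand. The deposited adjusted p-values gave the same calls, and the Benjamini-Yekutieli method can only raise an adjusted p. The count is therefore no measure of robustness. Between UPS and CTL, members past the threshold numbered 0 instead of 1 with the Benjamini-Yekutieli method, with the 3 tables adjusted together and with centring. The cause was not tested beyond the place of Cdc23 next to the threshold. Over all genes, the Benjamini-Yekutieli method called 4 between UPS and CTL instead of 23, and 13 between UPS and LB instead of 30. With the 3 tables adjusted together, 3 genes passed between LB and CTL instead of 0, none of them a member. With an adjusted p below 0.1, 48 genes passed between UPS and LB instead of 30, again no member. Centring turned the split of the calls between UPS and CTL to 3 negative of 20, against 6 negative of 23 as deposited. Standard errors at 27 or 44 degrees of freedom moved by less than their own sampling spread. No paired analysis was possible because the tables hold comparisons of groups and no values per library, and for the same reason no animal could be left out and no normalization or low-count filter could be changed.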
